A study of Mus musculus with 6 samples.

Results

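A set of 10 genes of the neuronal cytoskeleton and of growing neurites was examined for H3K79me2 in N2a cells: Tubb3, Map1b, Map2, Mapt, Stmn1, Stmn2, Gap43, Dcx, Nefl and Nefm. They are 10 of the 55450 genes of GENCODE release M21 that were used, and were picked by name. For each gene, the peaks lying over its body and the 3 kb upstream of its start (here its window) were collected on the mouse build mm10. N2a is an established mouse neuroblastoma line. The control group (CTR) was transfected with the non-targeting plasmid pLKO.1-shCTR and the knockdown group (NPM1 KD) with pLKO.1-shNpm1, which carries a short hairpin RNA against Npm1. According to the labels, NPM1 KD cells were put under puromycin selection after transfection, and 3 days in vitro are given for every library. There were 2 libraries a group of chromatin immunoprecipitation followed by sequencing (ChIP-seq), made from independent biological replicates of this 1 line with 1 hairpin. The pooled input of each group was not analysed here. The comparison asks whether partial loss of NPM1, a nucleolar chaperone that the study relates to the H3K79 methyltransferase DOT1L, changed where the mark lies.

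H3K79me2 is deposited by DOT1L within the globular part of histone H3, and it is found over the bodies of transcribed genes, where it is usually strongest downstream of the start. Microtubules, built of tubulin, and neurofilaments form the inner scaffold of axons and dendrites. Microtubule-associated proteins stabilise this scaffold, stathmins bind free tubulin and promote disassembly, and GAP43 acts at the membrane of the growth cone. Genes of this class are widely used as markers of neurons and of neuronal differentiation.

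The 10 genes fell into 3 sets that were alike in all 4 libraries. Tubb3, Map1b, Stmn1, Stmn2, Gap43 and Mapt carried the mark over most of the window. Map2 carried it over a small part, in short peaks that were densest near the start. Dcx, Nefl and Nefm had no peak in either kind of peak list. With the knockdown, 0 of the 7 genes with peaks passed the test for a change in covered length or in peak strength. Few windows of any gene did: 0.0116% were called higher and 0% lower in covered length. In peak strength the shares were 0.157% and 0.0638%. As deposited, the highest fold of a narrow peak was lower in both NPM1 KD libraries than in both CTR libraries in 6 of the 7. The same order held in 28.9% of all windows and in 45.7% of those with a mean fold of at least 16, where 6 of the 7 genes lie. After quantile normalisation it held in 4 of the 7, against 18.1% of all windows, a share that was not split by mean fold. Stmn1 was then higher in both NPM1 KD libraries (1 of 7 against 15.1%), and no gene passed the test.

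Of the 10 genes, 4 (Tubb3, Map1b, Map2 and Dcx) have an entry in the RefSeq promoter table of GRCm38.p6, the assembly that mm10 represents. These sequences run from 250 bases before to 50 bases after a RefSeq start. They are shown because the genes cover the 3 outcomes at a start: a broad peak over the whole promoter in every library (Tubb3, Map1b), a promoter free of peaks in front of a marked body (Map2), and no peak at all (Dcx). Capitals mark matches on either strand to the motif TATAAA of TATA boxes, to the motif GGGCGG of GC boxes, to the motif CCAAT of CCAAT boxes (read as ATTGG where it lies on the reverse strand) and to the E-box motif CACGTG. The promoters lie, in this order, at chr8:123411303-123411602 (plus strand), chr13:99516553-99516852 (minus strand), chr1:66175079-66175378 (plus strand) and chrX:143933170-143933469 (minus strand).
Tubb3: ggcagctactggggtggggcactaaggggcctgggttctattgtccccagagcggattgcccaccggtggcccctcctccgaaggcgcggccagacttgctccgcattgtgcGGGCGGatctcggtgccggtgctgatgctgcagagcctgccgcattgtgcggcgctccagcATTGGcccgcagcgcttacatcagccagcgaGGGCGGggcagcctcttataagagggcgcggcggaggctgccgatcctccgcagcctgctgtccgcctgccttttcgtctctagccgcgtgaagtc
Map1b: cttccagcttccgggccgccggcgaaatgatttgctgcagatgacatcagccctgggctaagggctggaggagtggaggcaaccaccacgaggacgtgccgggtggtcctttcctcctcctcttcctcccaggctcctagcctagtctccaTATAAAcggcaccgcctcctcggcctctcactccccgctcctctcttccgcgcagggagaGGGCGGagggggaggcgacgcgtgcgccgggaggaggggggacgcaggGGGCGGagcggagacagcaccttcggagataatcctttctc
Map2: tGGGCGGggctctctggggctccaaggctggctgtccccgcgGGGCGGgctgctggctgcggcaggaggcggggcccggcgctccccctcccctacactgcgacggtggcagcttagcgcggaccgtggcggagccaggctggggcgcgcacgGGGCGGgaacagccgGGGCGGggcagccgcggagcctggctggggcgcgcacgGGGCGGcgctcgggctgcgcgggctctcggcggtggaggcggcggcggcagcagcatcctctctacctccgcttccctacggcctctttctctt
Dcx: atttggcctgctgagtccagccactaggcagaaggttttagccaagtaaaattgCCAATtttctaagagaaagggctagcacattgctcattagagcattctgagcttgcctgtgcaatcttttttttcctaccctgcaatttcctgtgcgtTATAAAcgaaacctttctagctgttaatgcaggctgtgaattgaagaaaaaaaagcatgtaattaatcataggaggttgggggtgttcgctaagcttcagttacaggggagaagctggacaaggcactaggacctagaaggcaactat

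The promoters of Tubb3, Map1b and Map2 were rich in G and C, at 67.3%, 65.7% and 77.7%, against a median of 52.7% over the 32851 promoters of the table. The Dcx promoter held 43% G and C, and its ratio of observed to expected CpG was 0.219, against 0.765 in Tubb3, 0.711 in Map1b and 0.827 in Map2. The motif GGGCGG occurred 2 times in Tubb3, 2 times in Map1b, 5 times in Map2 and 0 times in Dcx, and 35.7% of all promoters held it at least once. TATAAA was found 1 time each in Map1b and Dcx (13.6% of all promoters), CCAAT 1 time each in Tubb3 and Dcx (37.4%), and CACGTG in none of the 4 (7.15%). A second Dcx entry that starts further downstream gave the same motif counts. The promoters of Tubb3 and Map1b were under a broad peak over all 300 bases in each library, and those of Map2 and Dcx over 0 bases. High G and C content therefore stood beside both outcomes, a covered promoter and an uncovered one. Mapt, Stmn1, Stmn2, Gap43, Nefl and Nefm had no entry.

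The deposited files list peaks, so the unit of these results is the called peak and not the read. The fold of a narrow peak was taken as its summit pileup plus 1 over the background of the peak caller plus 1. With this, fold and p together gave back whole pileups (within 0.02) for all of 2000 peaks drawn at random from each narrow list. Values of single libraries are given in the order of their replicate numbers. The background pileup, which follows depth, was 11.9 and 7.65 in CTR and 8.99 and 11.8 in NPM1 KD, so the deeper library was the first in CTR and the second in NPM1 KD. Of the narrow peaks of a list, 97.6% to 99.7% had this single background, so their folds hold no position-specific correction by the input. The lowest summit pileup among all narrow peaks with this background was 22 and 14 in CTR and 17 and 18 in NPM1 KD. Among markers, 7 of the 8 sympathetic neuroblast genes reported here had a broad peak in all 4 libraries (Phox2a and Hand2 over 100% of the window, Th over only 6.46%; Dbh had none), as had 3 of 3 housekeeping genes. The same held for 0 of 4 astrocyte, 1 of 4 oligodendrocyte (Mbp, 1.44% covered), 1 of 4 fibroblast and muscle (Des, 27.3%), 0 of 3 blood and 0 of 2 liver genes.

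**Figure D1:**
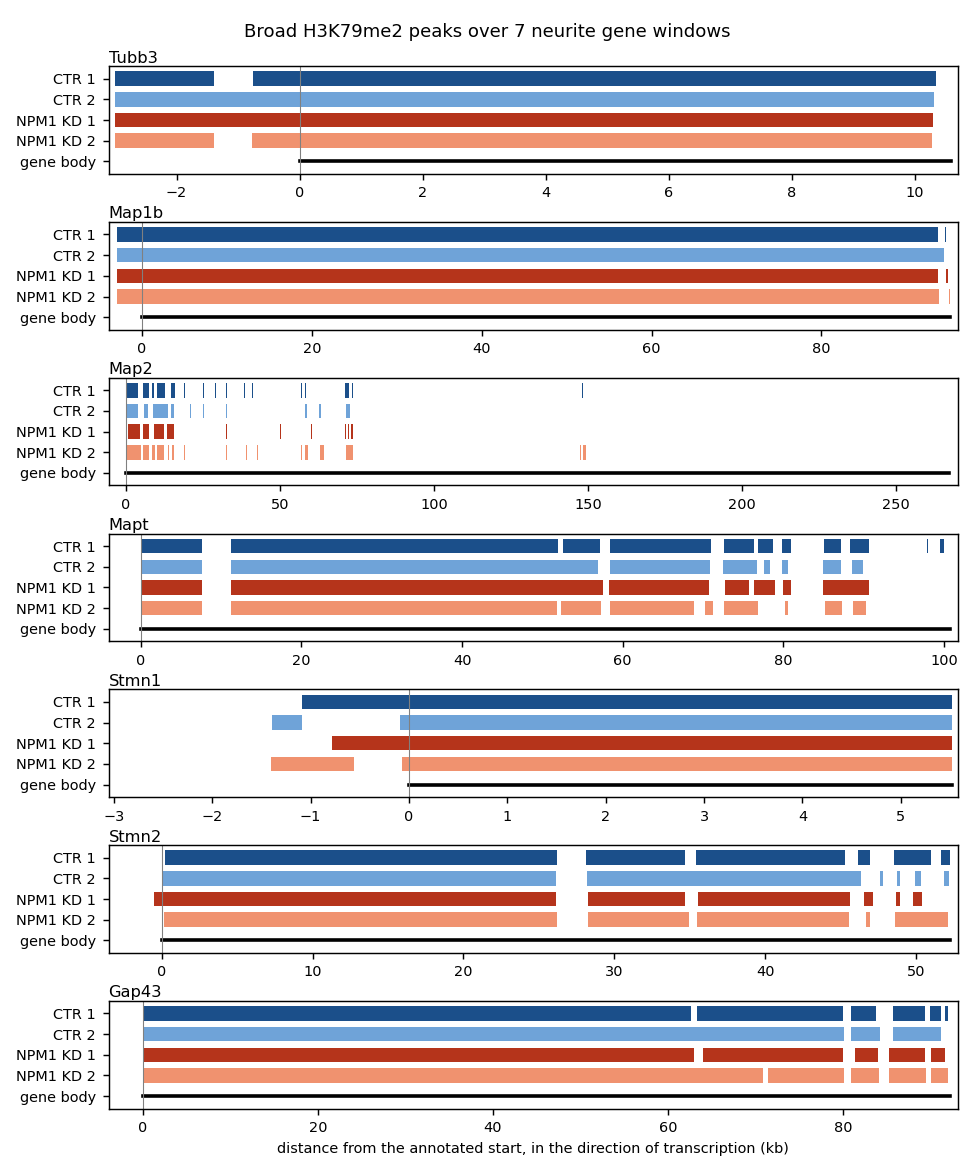
Broad H3K79me2 peaks of each library over the 7 gene windows with peaks, as horizontal bars against the distance from the annotated start in kb (start at 0, transcription to the right, gene body as a black line). Map1b and Tubb3 are covered almost end to end in all 4 libraries, and Map2 over a small part, in short peaks densest near the start. Mapt and Stmn2 show a gap at the same place in every library.

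Tubb3 (ENSMUSG00000062380.4, chr8:123411424-123422015, plus strand) encodes the neuronal class of beta-tubulin. Broad peaks covered 93.5% and 97.9% of its window in the CTR libraries and 97.9% and 93.2% in the NPM1 KD libraries, a mean of 95.7% ± 3.07 (SD, n = 2) in CTR and of 95.5% ± 3.31 (SD, n = 2) in NPM1 KD. The groups overlapped, and the high and low values stood 1 in each group. The domain ran through the start and ended 10.35, 10.31, 10.30 and 10.28 kb downstream of it (both CTR, then both NPM1 KD libraries), near the end of a body of 10.6 kb. The upstream 3 kb also held the start of Gm38092, a short transcript on the opposite strand whose start was under a broad peak in all 4 libraries, and most of the body of Mc1r, which is on the same strand and begins at -4317 bp. The annotated gene Gm20388 spans the whole locus, so a peak there cannot be assigned to one gene. The narrow summit lay in an intron, 2.29 to 2.85 kb downstream of the start, with a pileup of 542 and 382 in CTR and of 330 and 402 in NPM1 KD. The deposited fold was 42.1 and 44.3 in CTR and 33.1 and 31.5 in NPM1 KD. By fold the CTR libraries stood above the NPM1 KD libraries (43.2 ± 1.52 against 32.3 ± 1.14; SD, n = 2; two-sided exact permutation p = 0.33, the smallest that 2 libraries against 2 allow), whereas by pileup the groups overlapped. Within its own list this summit was above 99.2% to 99.7% of all narrow peaks.

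Map1b (ENSMUSG00000052727.6, chr13:99421446-99516540, minus strand) encodes a microtubule-associated protein made early in axon growth. It was the most fully covered of the 10: broad peaks took up 98.8% and 99.3% of the window in CTR, and 98.8% in each NPM1 KD library. The groups overlapped, with CTR 2 the highest. A single domain began upstream of the start and ended at 93.8, 94.5, 93.8 and 93.9 kb of a body of 95.1 kb, so this much longer gene was covered as completely as Tubb3. Among protein-coding genes with a body of 0.5 to 2 times its length, the covered share of Map1b was above that of 99.6%, and the median was 42.8%. Gm26559, annotated as a transcript from a bidirectional promoter, starts at -89 bp on the opposite strand, and 5330431K02Rik starts inside the body at 12.1 kb on the same strand. Both starts lay under broad peaks in all 4 libraries. The summit pileup was 612 and 384 in CTR against 377 and 449 in NPM1 KD, and the fold 47.6 and 44.5 against 37.9 and 35.2. CTR was again higher by fold without overlap (46.0 ± 2.16 against 36.5 ± 1.87; SD, n = 2) and overlapped with NPM1 KD by pileup. The summit stood in an intron at 31.5 to 31.6 kb in 3 libraries and at 5.23 kb in NPM1 KD 2.

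Map2 (ENSMUSG00000015222.17, chr1:66175273-66442583, plus strand) encodes the microtubule-associated protein that marks dendrites. Its window was the longest of the 10 and was covered over 5.37% and 5.22% in CTR, and over 5.16% and 6.50% in NPM1 KD, where the groups overlapped. Coverage was held by 20 and 11 short broad peaks in CTR and 12 and 17 in NPM1 KD, the longest of 4.91 kb, and 90.4% of the body was under a peak in none of the libraries. Of the first 10% of the body, 39.2% to 42.2% was covered, and the last covered base lay at 148 and 72.6 kb in CTR and 73.7 and 149 kb in NPM1 KD, of a body of 267 kb. Covered bases lay almost wholly in introns: peaks held 0.71% and 0.38% of the exonic bases in CTR and 0% in each NPM1 KD library. The promoter shown above was free of peaks, and the first broad peak began at 310, 363, 636 and 465 bp downstream of the start. The summits were the lowest of the 7 genes, though above 74.0% to 83.2% of all narrow peaks of their lists, with pileups of 65 and 40 in CTR against 38 and 51 in NPM1 KD, and folds of 5.12 and 4.74 against 3.91 and 4.07. Both NPM1 KD folds were below both CTR folds (3.99 ± 0.116 against 4.93 ± 0.269; SD, n = 2). Counting only stronger peaks (−log10 q of 5 or more) left 6073 and 3430 covered bp in CTR and 0 and 4330 in NPM1 KD. NPM1 KD 1 alone had no peak of that strength, and the other NPM1 KD library lay between the CTR libraries.

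Mapt (ENSMUSG00000018411.17, chr11:104231390-104332090, plus strand) encodes tau, the microtubule-associated protein of axons. Broad peaks covered 74.4% and 72.3% of its window in CTR and 75.7% and 70.4% in NPM1 KD, and the NPM1 KD values lay on either side of CTR. A first domain began 2 to 108 bp downstream of the start, so that the start itself lay outside, and ended at 7.60 kb in all 4 libraries. A second began at 11.3 kb and ran without a break for 40.6 and 45.7 kb in CTR and for 46.3 and 40.5 kb in NPM1 KD. Coverage thinned out towards the end, and of the last 10% of the body 7.07% was covered in CTR 1 and 0% in the other libraries. Gm11659, Gm22743 and Gm47310, on the opposite strand, start inside the body at 28.0, 19.8 and 19.8 kb, in each library under a broad peak. The summit pileup was 372 and 251 in CTR against 256 and 281 in NPM1 KD, and the fold 28.9 and 29.1 against 25.7 and 22.1, with both NPM1 KD folds below CTR (23.9 ± 2.59 against 29.0 ± 0.138; SD, n = 2). The highest summit of CTR 1 was in the first domain at 4.50 kb, and that of the other libraries in the second, at 11.6 to 11.7 kb, just downstream of the gap.

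The gap of Mapt between both domains, chr11:104238994-104242659, was 3666 bp long, lay outside exons and was free of broad and narrow peaks in all 4 libraries. Its edges lay between 7595 and 7603 bp downstream of the start on the near side and between 11270 and 11283 bp on the far side, so they were nearly the same in all libraries. In the reference, 99.5% of its bases are soft-masked as repeats, against 30.2% of the whole body. The 120 bases centred on each edge are shown to place both edges beside the nearest change in masking, with capitals for bases that are not masked. The near edge is at chr11:104238934-104239053 and the far edge at chr11:104242600-104242719, both on the plus strand.
Mapt near edge: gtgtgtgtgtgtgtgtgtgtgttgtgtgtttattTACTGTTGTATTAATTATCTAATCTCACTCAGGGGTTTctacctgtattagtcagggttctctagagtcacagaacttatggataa
Mapt far edge: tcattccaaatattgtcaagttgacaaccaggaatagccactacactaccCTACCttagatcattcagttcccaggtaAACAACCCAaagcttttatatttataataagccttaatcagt
From the edges, the nearest change between masked and unmasked letters was 12 bp downstream at the near edge and at -5 bp at the far edge. Stmn2 had a gap of the same kind, chr3:8535561-8537514, of 1954 bp at 26.2 to 28.2 kb, with 100% masked bases against 25.1% of the body. Its edges were looser, from 26116 to 26200 bp and from 28155 to 28254 bp downstream of the start, and the nearest changes in masking were at -323 and 263 bp from them. Other gaps of at least 1000 bp shared by the libraries were not of this kind, with 6.67% to 50.3% masked in Mapt, 18.6% in Gap43 and 10.2% to 61.1% in Map2. The study removed reads of low mapping quality, and the part of read mapping in these gaps was not tested.

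Stmn1 (ENSMUSG00000028832.11, chr4:134468320-134473843, plus strand) encodes stathmin, which binds tubulin dimers. The whole body was covered in all 4 libraries, and the window over 77.5% and 69.4% in CTR and 74.0% and 75.5% in NPM1 KD, so that libraries differed in the upstream 3 kb only. The CTR libraries were the highest and the lowest. Gm23634, a miRNA gene, starts at 44 bp on the same strand, inside the domain. The domain passed the end of the body, which is 5.52 kb long, and ended 6212 and 6215 bp downstream of the start in CTR and 7033 and 7041 bp downstream of it in NPM1 KD. Both NPM1 KD domains thus reached further than both CTR domains (two-sided exact permutation p = 0.33), by 823.5 bp in the mean. When broad peaks within 1 kb were merged, the CTR 1 domain ended at 7201 bp and the groups overlapped. The summit pileup was 310 and 210 in CTR against 269 and 271 in NPM1 KD, and the fold 24.1 and 24.4 against 27.0 and 21.3, with NPM1 KD on either side of CTR (24.2 ± 4.07 against 24.3 ± 0.188; SD, n = 2).

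Stmn2 (ENSMUSG00000027500.10, chr3:8509360-8561606, plus strand) encodes the neuronal stathmin SCG10 of growth cones. Its window was covered over 83.7% and 82.2% in CTR and 80.9% and 84.4% in NPM1 KD, and the groups overlapped. The first domain ended at the masked gap, 26.1 to 26.2 kb downstream of the start, and began 90 to 192 bp downstream of the start in 3 libraries and at -491 bp in NPM1 KD 1. Coverage of the last 10% of the body varied most, at 58.6% and 23.7% in CTR and 20.2% and 67.8% in NPM1 KD, with the 2 deeper libraries, 1 in each group, higher than the 2 shallower ones; the part of depth was not tested. The summit pileup at 2.10 to 2.32 kb was 265 and 146 in CTR against 158 and 165 in NPM1 KD, and the fold 20.6 and 17.0 against 15.9 and 13.0. The folds of NPM1 KD were below those of CTR (14.5 ± 2.07 against 18.8 ± 2.58; SD, n = 2), and the gap between groups, from 15.9 to 17.0, was smaller than the spread within either.

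Gap43 (ENSMUSG00000047261.9, chr16:42248442-42340651, minus strand) encodes a growth cone protein of axon outgrowth and regeneration. Broad peaks covered 91.7% and 93.2% of the window in CTR and 91.8% and 93.5% in NPM1 KD, so values of the same replicate number were closer than those of the same group. The first domain began 3 to 120 bp downstream of the start and ended at 62.6 and 80.1 kb in CTR and 63.0 and 70.9 kb in NPM1 KD, of a body of 92.2 kb. Mir6540 starts at 37.2 kb on the same strand, under a broad peak in all 4 libraries. The summit pileup was 250 and 167 in CTR against 164 and 167 in NPM1 KD, and the fold 19.5 and 19.4 against 16.5 and 13.1, lower in both NPM1 KD libraries (14.8 ± 2.39 against 19.5 ± 0.0359; SD, n = 2). Narrow peaks covered 84608 and 84884 bp in CTR and 80815 and 84606 bp in NPM1 KD, which put both NPM1 KD libraries lower, one of them only just.

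Dcx (ENSMUSG00000031285.14, chrX:143855842-143933311, minus strand) encodes doublecortin, a microtubule-binding protein of migrating neuroblasts. Nefl (ENSMUSG00000022055.7, chr14:68083863-68089095, plus strand) and Nefm (ENSMUSG00000022054.11, chr14:68082590-68124846, minus strand) encode the light and medium neurofilament chains, and the annotated window of Nefm contains Nefl. All 3 windows had 0 covered bases in all 4 libraries, by broad and by narrow peaks. Among 21951 protein-coding genes, 51.2% carried a broad peak in all 4 libraries, against 7 of these 10, and 46.0% in none, against 3 of 10. The broad peak nearest to Dcx was 381 to 382 kb away, at Alg13, in each library. Next to Nefl, CTR 1 had a peak 8.89 kb away and CTR 2 another at 3.08 kb, both close to the calling threshold (−log10 q of 1.32 and 1.66), whereas the nearest peak of either NPM1 KD library was 148 kb away at Dock5. Those 2 CTR peaks were 246 and 505 bp long, and they lie outside both windows. A list of called peaks sets no upper limit on weaker signal in these genes.

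**Figure D2:**
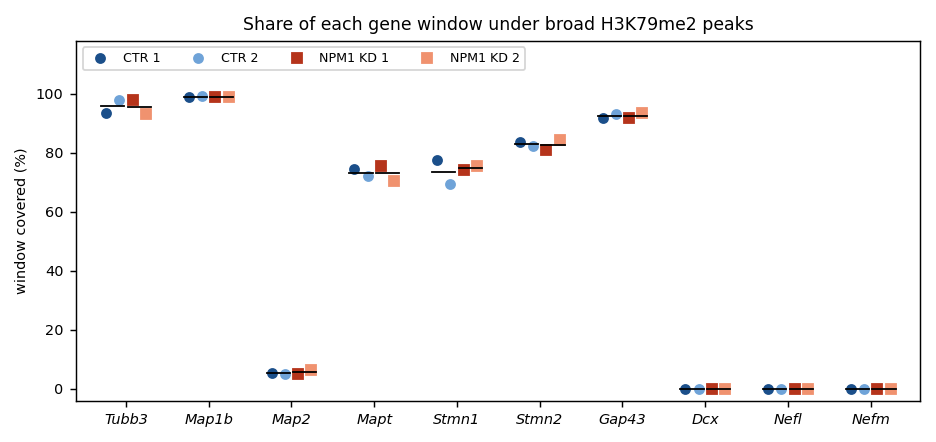
Percentage of each window under broad peaks for the 10 genes; circles are CTR and squares NPM1 KD libraries, and black bars are the means of 2 libraries. Values lie from 69.4% to 99.3% in 6 genes, from 5.16% to 6.50% in Map2 and at 0 in Dcx, Nefl and Nefm, and the groups overlap in each gene with peaks.

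Ordered by the mean share of the window covered over the 4 libraries, Map1b stood at 98.9% ± 0.27 (SD, n = 4), Tubb3 at 95.6% ± 2.61, Gap43 at 92.5% ± 0.97, Stmn2 at 82.8% ± 1.56, Stmn1 at 74.1% ± 3.44, Mapt at 73.2% ± 2.35 and Map2 at 5.56% ± 0.63. The ranges of Tubb3 and Gap43 overlapped, as did those of Stmn1 and Mapt, and the other neighbours were apart in every library. The median over protein-coding genes with a peak in all 4 libraries was 50.2%. The last 10% of the body was covered by over 50% in all 4 libraries in Tubb3, Map1b, Stmn1 and Gap43, that is 4 of 7, and in 22.1% of the protein-coding genes with a peak in all libraries. The start lay in a broad peak in all 4 libraries in Tubb3, Map1b and Stmn1, 3 of 7 against 43.4%. In Mapt, Map2, Gap43 and Stmn2 the first broad peak began downstream of the start, save for Stmn2 in NPM1 KD 1. The 7 genes thus differed in how far the mark went and, to a smaller degree, in whether it held the start.

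Covered length was tested with limma on log2(covered bp + 1000) over 17214 windows of all genes, with Benjamini-Hochberg adjustment. Of all windows 2 were called higher in NPM1 KD (0.0116%) and 0 lower (0%), 2335 having an unadjusted p under 0.05, and of the 7 genes 0 were called. The change of Map2 was 0.12 ± 0.14 (SE) and its adjusted p by limma 0.772. Those of the other 6 lay between -0.0068 (Mapt) and 0.023 (Stmn1), with adjusted p of 0.844 to 1 by limma. The median change of all windows was 0.061. Both NPM1 KD libraries covered more than both CTR libraries in 0 of the 7 genes against 40.3% of windows, and less in 0 of 7 against 3.11%. Map1b, Tubb3, Gap43 and the body of Stmn1 were covered nearly in full in every library, and the part of this in the count was not tested.

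**Figure D3:**
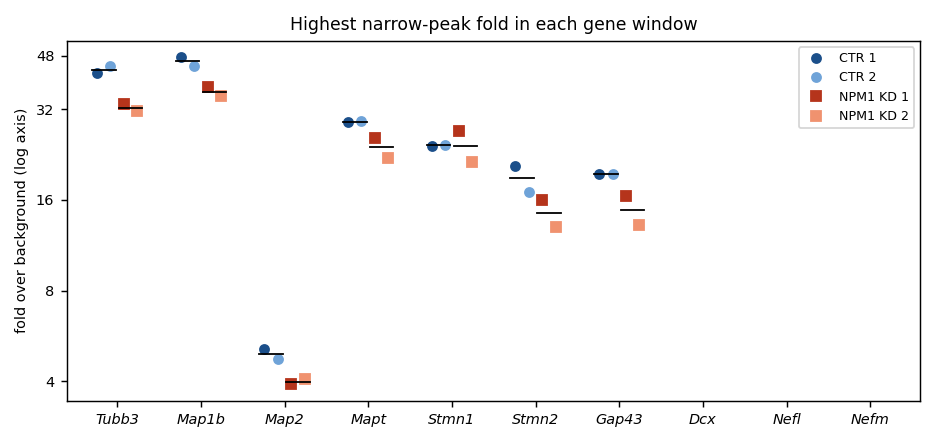
Highest fold over background of a narrow peak in each window on a log axis; circles are CTR and squares NPM1 KD libraries, and black bars are means of 2 libraries. Both squares lie below both circles in 6 of 7 genes (28.9% of all windows, 45.7% of those with a mean fold of at least 16), Stmn1 being the exception (21.3 and 27.0 against 24.1 and 24.4), and Dcx, Nefl and Nefm have no peak to plot.

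Peak strength, the highest narrow fold in a window, was tested with limma on log2 values after quantile normalisation, over 17231 windows with a narrow peak in every library. Of these 27 were called higher (0.157%) and 11 lower (0.0638%), and again 0 of the 7 genes were. The change was -0.37 ± 0.14 (SE) in Map2, -0.30 ± 0.12 in Gap43, -0.30 ± 0.13 in Stmn2, -0.18 ± 0.14 in Tubb3, -0.10 ± 0.12 in Mapt and -0.054 ± 0.14 in Map1b, and 0.15 ± 0.12 in Stmn1. The adjusted p of limma was 0.959 to 0.992 for all 7, and the unadjusted p 0.038 for Map2 and 0.049 for Gap43. On this scale both NPM1 KD values were below both CTR values in Map2, Mapt, Stmn2 and Gap43 (4 of 7 against 18.1% of windows) and above them in Stmn1 (1 of 7 against 15.1%).

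The size of these values depended on the scaling, and in Stmn1 also the direction. With the fold as deposited, all 7 changes were below 0, from -0.42 in Tubb3 to -0.017 in Stmn1 (adjusted p of 0.779 to 0.986 by limma), and the median of all windows was -0.086. With median centring in place of quantile normalisation, the changes were -0.36 in Tubb3, -0.28 in Map1b, -0.25 in Map2, -0.23 in Mapt, 0.042 in Stmn1, -0.32 in Stmn2 and -0.34 in Gap43. With the deposited values, both NPM1 KD folds were below both CTR folds in 6 of 7 genes, against 28.9% of all windows, and above in 0 of 7 against 10.0%. That share moved with the height of the peak: of the 7221 windows with a mean fold of at least 16 it was 45.7%, of those between 8 and 16 it was 21.2%, and of those below 8 it was 12.8%. All of the genes but Map2 were in the highest class. By the broad lists, whose fold is an average over the peak, NPM1 KD was lower without overlap in Tubb3, Map1b, Map2, Stmn1, Stmn2 and Gap43, 6 of 7 against 38.8%, and higher in 0 of 7 against 10.1%. Neither these shares nor those after quantile normalisation were split by the height of the peak. The part of library enrichment in these folds was not tested. By immunoblot, the study reported a rise in global H3K79me2 after the knockdown. In its own differential analysis of the ChIP-seq, more regions lost than gained the mark, a discrepancy that the study discusses. Quantile normalisation gives every library the same distribution, so a change common to all windows cannot be seen on that scale.

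**Figure D4:**
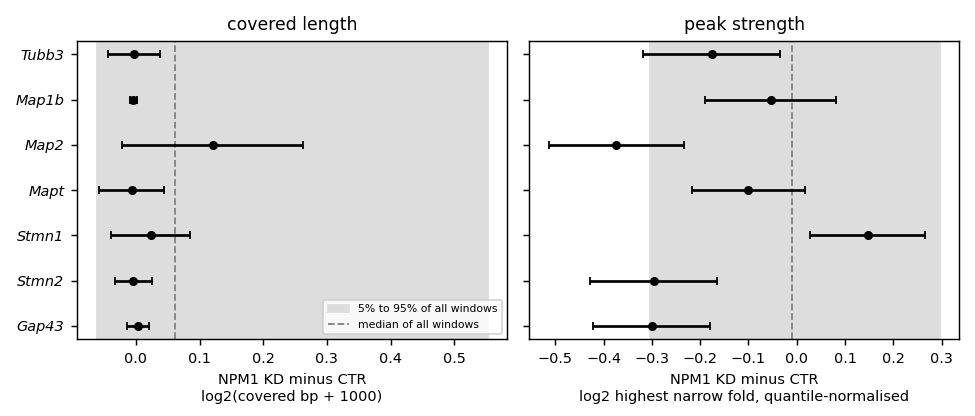
Change with NPM1 KD (difference of group means on the log2 scale, points; bars are the standard error of limma) for the 7 genes, in covered length on the left and in quantile-normalised peak strength on the right. Grey bands span the 5th to the 95th percentile of all windows tested and dashed lines their medians (0.061 and -0.0095); in peak strength only Map2 lies outside the band.

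The other genes of the cytoskeleton were taken from 5 lists of 57 genes. Of these, 53 had a broad peak in all 4 libraries, against 51.2% of protein-coding genes. Tubb4a, Map7, Dpysl4 and Kif1a had none in any, against 46.0%. Of 53 tested for covered length by limma 0 were called in either direction, against 0.0116% of all windows higher and 0% lower. Of 52 tested for peak strength 0 were called, against 0.157% higher and 0.0638% lower. Both NPM1 KD libraries covered more than both CTR libraries in 20 of the 53 (37.7%, against 40.3% of all windows) and less in 3 (5.66%, against 3.11%). Their median change in covered length was 0.030, against 0.061 for all windows, and in quantile-normalised peak strength -0.088, against -0.0095. The lists were thus near the background in covered length.

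Among 11 tubulin genes, 10 had peaks in every library, and Tuba1a and Tuba1b were covered over 100% of the window, beside 0% in Tubb4a. Of 16 microtubule-binding proteins 15 had them, from Map1s at 87.8% ± 1.00 (SD, n = 4) to 0% in Map7. All 5 of the other intermediate filament genes had them, from Ina, alpha-internexin, at 94.0% ± 3.37 down to Nes, nestin, at 28.2% ± 4.45. The neurofilament partner Ina was therefore covered where Nefl and Nefm were not. So was Nefh, the heavy neurofilament chain, at 60.8% ± 14.0 (50.2% to 81.3% in single libraries). Of 16 growth cone and neurite genes 15 had peaks in every library, with Basp1, a membrane protein related in function to GAP43, at 95.9% ± 1.02 and Dpysl4 at 0%. Of 9 motor genes 8 had them, with Kif5c, a kinesin of axonal transport, at 80.3% ± 1.07 and Kif1a at 0%. Median changes in covered length were 0.0025, 0.032, 0.080, 0.023 and 0.080 in the same order of lists.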

How the data were processed

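H3K79me2 ChIP-seq was analysed in 4 libraries of N2a cells, 2 CTR and 2 NPM1 KD. According to the submitters' processing notes and the study's methods, the authors trimmed paired-end reads (Trimmomatic 0.38), aligned them to mm10 (Bowtie2 2.3.4.1), removed reads of low mapping quality and called peaks per library with MACS2. The notes give MACS2 2.2.6, whereas the study's methods name another release. Peak names differ between list kinds, so the narrow lists may precede that removal. The authors deposited for each peak a fold, which is a ratio of pileup to background (at the summit in narrow lists, where 1 added to each fits the values, and averaged in broad lists). The deposited −log10 p and −log10 q and the score came from MACS2 as well. Read counts were not analysed here.

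Windows were the body and 3 kb upstream of each GENCODE M21 gene. Covered length (broad lists, windows with a mean of at least 500 covered bp, pseudocount 1000 bp) and peak strength (log2 highest narrow fold, quantile-normalised, windows with a peak in all 4 libraries) were fitted with limma 3.58.1 in R 4.3.3 over all windows at an adjusted p of 0.05, after a test on simulated data. Reach was the end of the broad peak holding the start or, chosen after seeing the data, beginning within 1 kb downstream of it. Two-sided exact permutation tests compared single values. Pileups were solved from fold and p. Python 3.11.15, numpy 2.4.6, pandas 2.3.3, scipy 1.17.1 and matplotlib 3.10.9 were used.

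The 10 genes, the lists and the naming rule (all 10 genes, and per list the genes covered most and least or called) were chosen with earlier results of these data known. Nefh was named outside this rule. The methods tie replicates to passage and transfection batch, so libraries of one number may be paired. The main fits and the permutation tests were unpaired, and the pairing entered as a replicate block in an alternative. Their deviations from group means correlated at 0.237 (covered length) and 0.198 (peak strength). Alternatives were other lists, thresholds, scalings, windows and left-out libraries. Inputs had no peak lists in the files used here. Some marker genes of the neuroblast list are not reported here.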

Additional observations from a re-analysis of the deposited data

How the results depend on the processing

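None of the 7 genes with peaks was called under any alternative run for covered length or peak strength. Over all windows, covered length gave 2 calls higher, which became 0 with narrow lists, 77 (and 3 lower) with a −log10 q of at least 5, 1 with lists of equal size, 5 without the filter on low coverage, and 0 with each library left out in turn. With the replicate block it gave 0, and for peak strength the block gave 27 higher and 9 lower; it changed no call on a named gene. Peak strength gave 45 higher with broad lists, and 17 higher and 7 lower with the fold as deposited, which was chosen after seeing the data. It gave 0 in both directions without CTR 1, CTR 2 or NPM1 KD 2, and 24 higher and 13 lower without NPM1 KD 1, so left-out libraries spanned 0 to 24 and 0 to 13. Each of these fits has 1 arm of a single library, assumed to vary like the other group. The cause was not tested.

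Both NPM1 KD libraries covered less in 1 gene with narrow lists (Gap43; 4.20% of all windows) and in 1 over the body alone (Tubb3; 2.86%). A broad peak at or within 1 kb downstream of the start was present in all 4 libraries in 7 genes, instead of 3 at the start itself. Some changes turned sign without a call. In covered length, narrow lists gave 0.011 for Map1b, -0.19 for Map2 and -0.035 for Gap43. A −log10 q of at least 5 gave -1.28 ± 1.14 (SE) for Map2 (0 covered bp in NPM1 KD 1), -0.032 for Stmn1 and -0.016 for Gap43. With single libraries left out they ran from -0.036 to 0.030 in Tubb3, -0.0077 to 0.00027 in Map1b, -0.036 to 0.28 in Map2, -0.059 to 0.045 in Mapt, -0.046 to 0.092 in Stmn1, -0.034 to 0.026 in Stmn2 and -0.010 to 0.017 in Gap43. In peak strength, the changes with single libraries left out ran from -0.30 to -0.054 in Tubb3, -0.18 to 0.071 in Map1b, -0.51 to -0.24 in Map2, -0.14 to -0.062 in Mapt, 0.096 to 0.20 in Stmn1, -0.40 to -0.19 in Stmn2 and -0.36 to -0.24 in Gap43, and Stmn1 turned to -0.045 with broad lists and -0.017 with the fold as deposited. The cause was not tested. With 2 libraries per group and no read counts, small changes in level cannot be measured here.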
